A study of Arabidopsis thaliana with 12 samples.

Results

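The genes described here are 10 nuclear genes of the heat shock response in Arabidopsis thaliana seedlings. They are 3 heat shock factor genes (HSFA2, HSFB2A and HSFA7A), 3 large chaperone genes (HSP70, HSP90.1 and HSP101), the co-chaperone gene ROF2 and 3 small heat shock protein genes (HSP17.4, HSP17.6A and HSP18.2). These are 10 of the 34262 features in the count tables. They were picked by locus with their levels in these libraries already known, so that their values and the calls given for them are a description and support nothing. Of the 10 genes, 8 passed the filter on low counts, and HSFA2 and HSP18.2 did not.

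The seedlings were 6 days old, grown on MS medium and used whole. The 4 groups of 3 libraries each were the pot1b mutant with 20 µM Zeocin for 6 h, the pot1b mutant with mock treatment, wild type Col-0 (WT) with the same Zeocin treatment, and WT with mock treatment. POT1b is a relative of the telomere protein POT1a, and Zeocin, of the bleomycin family, breaks DNA strands. The labels do not name the pot1b allele or say whether replicates came from separate cultures, so a p-value reflects the spread among the libraries at hand, and this may be technical spread.

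In plants as in other eukaryotes, heat shock factors of class A, led by the HSFA1 factors, are held inactive by the HSP70 and HSP90 chaperones. Proteins that lose their fold draw these chaperones away, and the freed factors bind heat shock elements, short runs of GAA and TTC in turn, before genes for chaperones and for further factors such as HSFA2. HSP70 and HSP90 bind and refold client proteins, HSP101 pulls proteins out of aggregates, and small heat shock proteins hold unfolded proteins until they can be refolded.

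The elements before these genes are shown because they are the feature that the family is known for. The choice did not use the sequences, but heat shock genes were picked. A high share of elements was thus likely beforehand and is a description only. A run of 3 units was searched as GAANNTTCNNGAA or TTCNNGAANNTTC, and a run of 2 units as GAANNTTC or TTCNNGAA. Each pair of patterns covers both strands, and every run of 3 units holds overlapping runs of 2. The sites below are all the runs of 3 units within 500 bases before the coding start, in capitals, each within 30 bases read 5′ to 3′ on the gene's strand from the RefSeq sequence of TAIR10.1.
HSP70, chr3:3993846-3993875, minus strand: tttactcgtGAACGTTCTCGAAagctcttt
HSP90.1, chr5:21352253-21352282, plus strand: aaacgaaaaGAACTTTCTGGAAttcgtttg
HSFA2, chr2:11135527-11135556, plus strand: attagtaacGAAGTTTCTGGAAcattgtct
HSFB2A, chr5:24916057-24916086, plus strand: actccatagGAAGTTTCTTGAAgcctaaaa
HSFA7A, distal site, chr3:19264940-19264969, plus strand: attacgaagTTCCAGAAGTTTCgactattc
HSFA7A, proximal site, chr3:19264990-19265019, plus strand: caaaaccgtTTCCAGAAGTTTCtaatttct
HSP17.4, distal site, chr3:16984946-16984975, minus strand: atcaacataGAAGCTTCTTGAAgccacctg
HSP17.4, proximal site, chr3:16984865-16984894, minus strand: aagaaacctGAAATTTCAAGAAacttgcag
HSP18.2, chr5:24062387-24062416, plus strand: tcaacaaacGAAACTTCCTGAAatgccaag

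Within 500 bases before the coding start, 7 of the 10 genes held a run of 3 units and 9 held a run of 2, against 1.2% and 33.9% of 27443 nuclear protein-coding genes. This window was added after the annotation was seen, while the search was planned for 250 bases before the gene start. ROF2 held neither, and HSP101 and HSP17.6A held runs of 2 units only. For HSP101 the whole window lay inside the annotated transcript, which began 507 bases before the coding start. No run was found in the 250 bases before its annotated gene start. The HSP70 site began 177 bases before the coding start, inside the annotated transcript, which began 197 bases before it. Those of HSFB2A and HSP18.2 lay inside the annotated transcript as well, whereas those of HSFA2, HSFA7A, HSP17.4 and HSP90.1 lay upstream of the annotated start. For HSP90.1 the annotation sets 0 bases between gene start and coding start, so the place of its site rests on that annotation. Within 250 bases before the annotated gene start, only HSFA2, HSFA7A and HSP17.4 held a run of 3 units (3 of 10 genes, against 0.386% of all promoters), and 4 of 10 held a run of 2 (16.1% of all promoters). The whole window is shown for the pair of these whose promoter runs through no neighbouring gene and whose log2 differences between pot1b mock and WT mock had opposite signs, with the runs of 3 units in capitals (5′ to 3′, TAIR10.1).
HSFA7A, chr3:19264891-19265140, plus strand: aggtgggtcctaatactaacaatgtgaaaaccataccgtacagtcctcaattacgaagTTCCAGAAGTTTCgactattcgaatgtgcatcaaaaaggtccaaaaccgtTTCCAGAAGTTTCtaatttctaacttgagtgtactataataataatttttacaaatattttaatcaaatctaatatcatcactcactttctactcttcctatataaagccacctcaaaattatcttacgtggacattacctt
HSP17.4, chr3:16984868-16985117, minus strand: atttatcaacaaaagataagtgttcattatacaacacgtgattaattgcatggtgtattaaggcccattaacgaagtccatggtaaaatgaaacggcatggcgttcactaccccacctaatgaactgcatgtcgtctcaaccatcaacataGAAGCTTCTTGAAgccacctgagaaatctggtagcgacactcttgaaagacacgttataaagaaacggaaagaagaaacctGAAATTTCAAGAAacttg

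**Figure D1:**
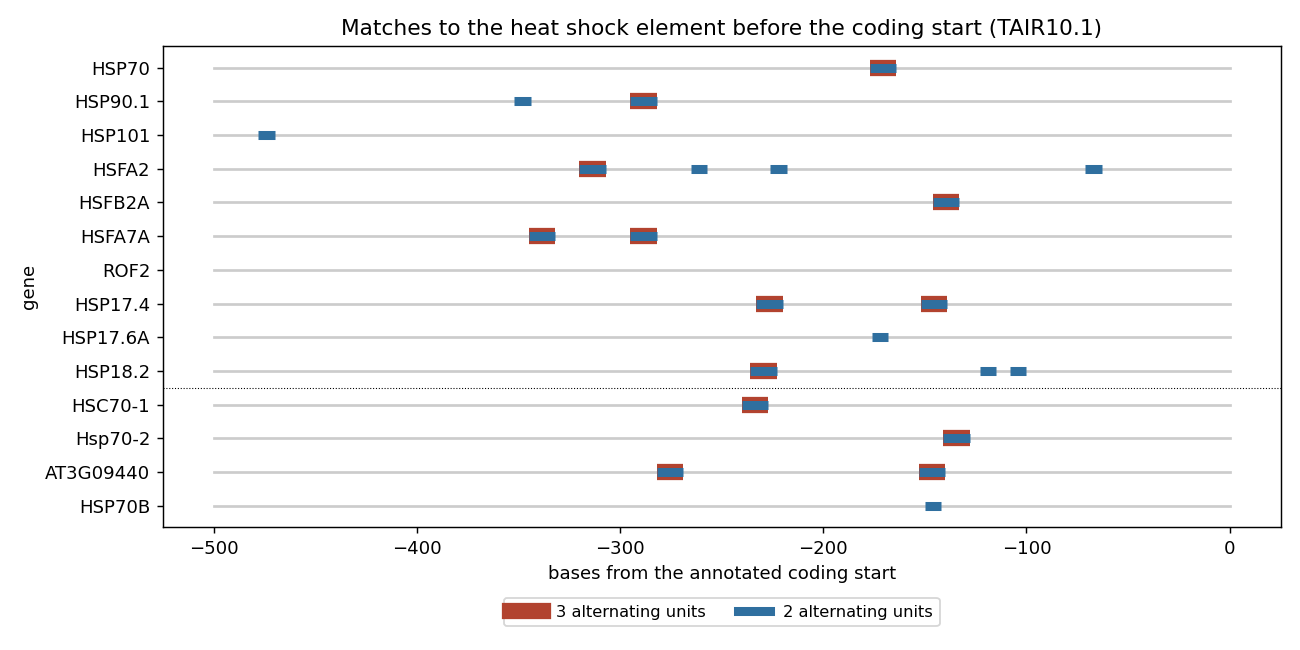
Matches to the heat shock element in the 500 bases before the annotated coding start (x axis, bases) of the 10 genes and, below the dotted line, of 4 further HSP70 genes. Thick red bars are runs of 3 units and thinner blue bars runs of 2 units; 7 of the 10 genes hold a red bar, and ROF2 holds none of either kind.

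Between 9607269 and 24587168 counts were read per library, and 53.01% to 58.45% of them fell on chloroplast genes. Levels are given as CPM, the count per library divided by a TMM-scaled library size. A number of 3 counts in a library corresponded to 0.119 to 0.316 CPM. The Zeocin treatment was visible in BRCA1, a DNA repair gene, at 97.1, 97 and 102 CPM in pot1b Zeocin against 0.936, 0.781 and 0.867 in pot1b mock, and at 88.8, 87.6 and 81.3 in WT Zeocin against 1.35, 1.26 and 1.09 in WT mock. POT1B itself had 1.66, 0.7 and 4.21 CPM in pot1b Zeocin, 1.43, 1.09 and 2.82 in pot1b mock, 3.22, 3.37 and 5.35 in WT Zeocin and 3.13, 2.95 and 3.23 in WT mock. The libraries labelled pot1b with number 3 therefore lay near or within the WT range, on 56 counts with Zeocin and 39 with mock. POT1B overlaps NHL3 on the other strand. Results are given also without both libraries. Whole seedlings were sequenced, so fewer cells of a type and less RNA per cell cannot be told apart.

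The 3 large chaperone genes were highest in mock-treated pot1b, and all 9 other libraries of each lay below. HSP70 (AT3G12580), a cytosolic chaperone that heat induces, had 14.1, 14.3 and 13.6 CPM in pot1b Zeocin, 38.1, 38.3 and 36 in pot1b mock, 15.6, 12.6 and 10.3 in WT Zeocin and 13.2, 15 and 14 in WT mock. The pot1b mock libraries stood clear of the rest, while the other groups overlapped each other. Pot1b mock was higher than WT mock by 1.42 (log2 fold change, SE 0.11), and pot1b Zeocin differed from pot1b mock by -1.42 (SE 0.11). Both values rest on the same 3 pot1b mock libraries. WT Zeocin differed from WT mock by only -0.13 (SE 0.11), and pot1b Zeocin from WT Zeocin by 0.13 (SE 0.12).

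HSP90.1 (AT5G52640), the heat-inducible cytosolic HSP90, had 12.3, 10.2 and 10.3 CPM in pot1b Zeocin, 25.6, 22.8 and 21.2 in pot1b mock, 17, 11.5 and 9.74 in WT Zeocin and 13, 14.3 and 11.2 in WT mock. As for HSP70, the pot1b mock libraries lay above all others, and WT Zeocin replicate 1 was the highest of the remainder. Its log2 fold change was 0.87 (SE 0.16) for pot1b mock against WT mock and -1.08 (SE 0.17) for pot1b Zeocin against pot1b mock. In WT the Zeocin difference was -0.01 (SE 0.17).

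HSP101 (AT1G74310), the disaggregase needed for tolerance to severe heat, had 5.75, 6.3 and 5.79 CPM in pot1b Zeocin, 9.65, 7.96 and 8.6 in pot1b mock, 4.31, 3.94 and 4.87 in WT Zeocin and 4.2, 4.63 and 3.52 in WT mock. Here the pot1b Zeocin libraries also lay above every WT library, so that the level with Zeocin was intermediate. The log2 fold changes were 1.11 (SE 0.14) for pot1b mock against WT mock, -0.57 (SE 0.14) for pot1b Zeocin against pot1b mock and 0.44 (SE 0.15, not called) for pot1b Zeocin against WT Zeocin. HSP101 overlaps AT1G74300 on the opposite strand over 101 bases (3.0% of its exon length), a gene with 168 counts over all libraries against 1097 for HSP101.

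**Figure D2:**
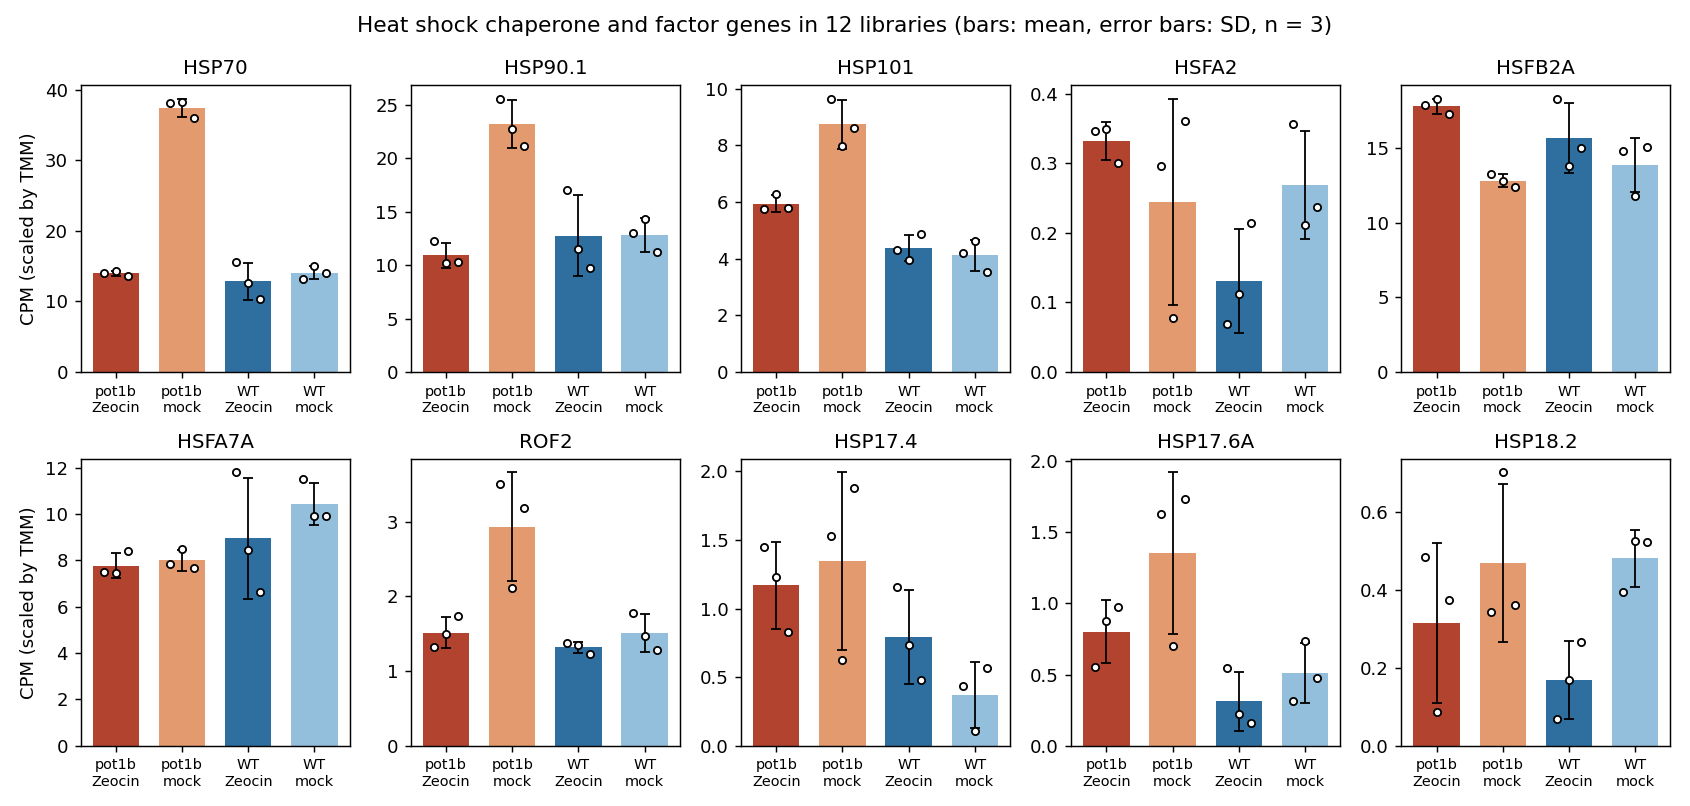
CPM of the 10 genes in every library (points, n = 3 per group), with the group mean (bar) and SD (error bar); groups from left to right are pot1b Zeocin, pot1b mock, WT Zeocin and WT mock. All pot1b mock libraries of HSP70, HSP90.1, HSP101 and ROF2 lie above every other library, which is not so for the other genes, and the y axes differ between genes.

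ROF2 (AT5G48570), a peptidyl-prolyl isomerase of the FKBP type that works with HSP90 and HSFA2, had 1.32, 1.49 and 1.73 CPM in pot1b Zeocin, 3.5, 2.11 and 3.18 in pot1b mock, 1.37, 1.35 and 1.23 in WT Zeocin and 1.78, 1.47 and 1.28 in WT mock. As for the large chaperone genes, its pot1b mock libraries lay above the 9 others, while no element was found before it. The log2 fold change was 0.96 (SE 0.22) for pot1b mock against WT mock and -0.98 (SE 0.23) for pot1b Zeocin against pot1b mock.

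The small heat shock protein genes were near the limit of detection. HSP17.4 (AT3G46230), of cytosolic class I, had 21, 14 and 11 counts in pot1b Zeocin, 31, 8 and 26 in pot1b mock, 17, 13 and 9 in WT Zeocin and 11, 1 and 12 in WT mock. In CPM the pot1b mock libraries (0.625 to 1.88) all lay above the WT mock libraries (0.105 to 0.57) but overlapped both Zeocin groups. The log2 fold change was 1.67 (SE 0.43) for pot1b mock against WT mock and -0.23 (SE 0.38) for pot1b Zeocin against pot1b mock. HSP17.4 shares 453 bases (62.6% of its exon length) with the long non-coding RNA AT3G07365 on the opposite strand. This RNA held 28 counts in pot1b Zeocin, 41 in pot1b mock, 10 in WT Zeocin and 13 in WT mock. It also shares 60 bases (8.3%) with AT3G46220 on the opposite strand, a gene with 518 counts in pot1b Zeocin, 717 in pot1b mock, 675 in WT Zeocin and 755 in WT mock. Since the strand setting of the counting is not given in the sources used here, reads of HSP17.4 cannot be told apart from those of either neighbour in the shared stretches, and the value is uncertain.

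HSP17.6A (AT5G12030), of cytosolic class II, had 8, 10 and 13 counts in pot1b Zeocin, 33, 9 and 24 in pot1b mock, 8, 4 and 3 in WT Zeocin and 8, 7 and 10 in WT mock. In CPM the lowest pot1b mock library (0.703) lay below the highest WT mock library (0.737), so the groups overlapped. The log2 fold change was 1.60 (SE 0.40) for pot1b mock against WT mock and 1.40 (SE 0.51, not called) for pot1b Zeocin against WT Zeocin. HSP18.2 (AT5G59720), also of class I, summed to 13 counts in pot1b Zeocin, 21 in pot1b mock, 9 in WT Zeocin and 26 in WT mock, and was not tested.

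The factor genes were not highest in pot1b mock as the large chaperone genes were. HSFB2A (AT5G62020), a class B factor without the activation domain of class A, had 17.9, 18.3 and 17.3 CPM in pot1b Zeocin, 13.3, 12.8 and 12.4 in pot1b mock, 18.3, 13.8 and 15 in WT Zeocin and 14.8, 11.8 and 15.1 in WT mock. It was lower in pot1b mock than in pot1b Zeocin with no overlap, while the WT groups overlapped. The log2 fold change was 0.47 (SE 0.11) for pot1b Zeocin against pot1b mock and -0.13 (SE 0.11) for pot1b mock against WT mock.

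HSFA7A (AT3G51910), a heat-induced class A factor, had 7.48, 7.44 and 8.42 CPM in pot1b Zeocin, 7.83, 8.51 and 7.66 in pot1b mock, 11.8, 8.43 and 6.64 in WT Zeocin and 11.5, 9.9 and 9.93 in WT mock. All pot1b libraries lay below the WT mock libraries, and WT Zeocin spread over the whole range. Pot1b mock against WT mock gave -0.39 (SE 0.15, not called, but called lower at -0.39 with only the 2 groups compared). HSP17.4, which also carries a pair of 3-unit elements, had the opposite sign, but on few counts and with an uncertain value. The signs were known when this pair was chosen for display. A relation of the elements to the levels was not tested. HSFA2 (AT2G26150), the factor that heat raises most strongly in leaves, was barely read. It had 13 counts in pot1b Zeocin, 12 in pot1b mock, 7 in WT Zeocin and 16 in WT mock, or 0.0685 to 0.361 CPM in single libraries.

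Among the 8 tested genes, 6 were called higher in pot1b mock than in WT mock and 0 lower (13.1% of the 19596 genes tested, 7.25% higher and 5.83% lower), called meaning an adjusted p under 0.05 in edgeR's quasi-likelihood test. For pot1b Zeocin against pot1b mock 1 gene, HSFB2A, was called higher and 4 lower (6.7% of all genes, 3.7% higher and 3% lower), HSP70, HSP90.1, HSP101 and ROF2. For WT Zeocin against WT mock 0 were called (5.99% of all genes, 3.34% higher and 2.65% lower), also by DESeq2 and limma-voom, and 0 had an unadjusted p under 0.05 (3480 of all 19596 genes). For pot1b Zeocin against WT Zeocin 0 were called by the same 3 tools (11.1% of all genes by edgeR, 6.55% higher and 4.51% lower), with 2 at an unadjusted p under 0.05 (4812 of all 19596 genes). The interaction, the log2 difference of pot1b Zeocin from pot1b mock minus that of WT Zeocin from WT mock, was called for 2 genes, both lower, HSP70 (-1.29, SE 0.16) and HSP90.1 (-1.08, SE 0.23), against 0.75% of all genes (0.378% higher and 0.373% lower). The call of HSP90.1 was lost when 10 of the 12 libraries were dropped singly (-1.17 to -0.98), those of WT Zeocin replicates 1 and 3 being the exceptions. It was also lost with limma-voom and without both pot1b libraries numbered 3. The genes were picked for this pattern, so nothing is read from these counts, and the comparisons with pot1b mock share its 3 libraries. The median log2 fold change of the 8 was 1.04 for pot1b mock against WT mock, -0.68 for pot1b Zeocin against pot1b mock, -0.07 for WT Zeocin against WT mock and 0.19 for pot1b Zeocin against WT Zeocin, where that of all genes lay between 0.00 and 0.01.

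Without both pot1b libraries numbered 3, HSP70 kept its difference at 1.46 (SE 0.12) for pot1b mock against WT mock and -1.44 (SE 0.14) for pot1b Zeocin against pot1b mock, and HSP90.1 had 0.94 and -1.11. HSP101 (-0.57), ROF2 (-1.06) and HSFB2A (0.46) were then no longer called for pot1b Zeocin against pot1b mock, nor were HSP17.4 (1.43) and HSP17.6A (1.44) for pot1b mock against WT mock. Single libraries decided some calls too. For pot1b Zeocin against pot1b mock, HSP101 and ROF2 were not called without pot1b Zeocin replicate 1 (-0.54 and -0.88) or pot1b mock replicate 1 (-0.49 and -0.82), and HSFB2A not without pot1b mock replicate 3 (0.45). For pot1b mock against WT mock, ROF2 was not called without pot1b mock replicate 1 (0.79). In the same comparison HSP17.4 and HSP17.6A were not called without pot1b mock replicate 1 (1.56 and 1.42), pot1b mock replicate 3 (1.42 and 1.43) or WT mock replicate 1 (1.70 and 1.29). Without WT Zeocin replicate 1, HSFA7A was called lower in pot1b mock than in WT mock (-0.40) and in WT Zeocin than in WT mock (-0.47), and HSP17.6A higher in pot1b Zeocin than in WT Zeocin (1.99). Without WT Zeocin replicate 3, HSFA7A was called lower in pot1b mock than in WT mock (-0.39), and HSP101 higher in pot1b Zeocin than in WT Zeocin (0.53).

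**Figure D3:**
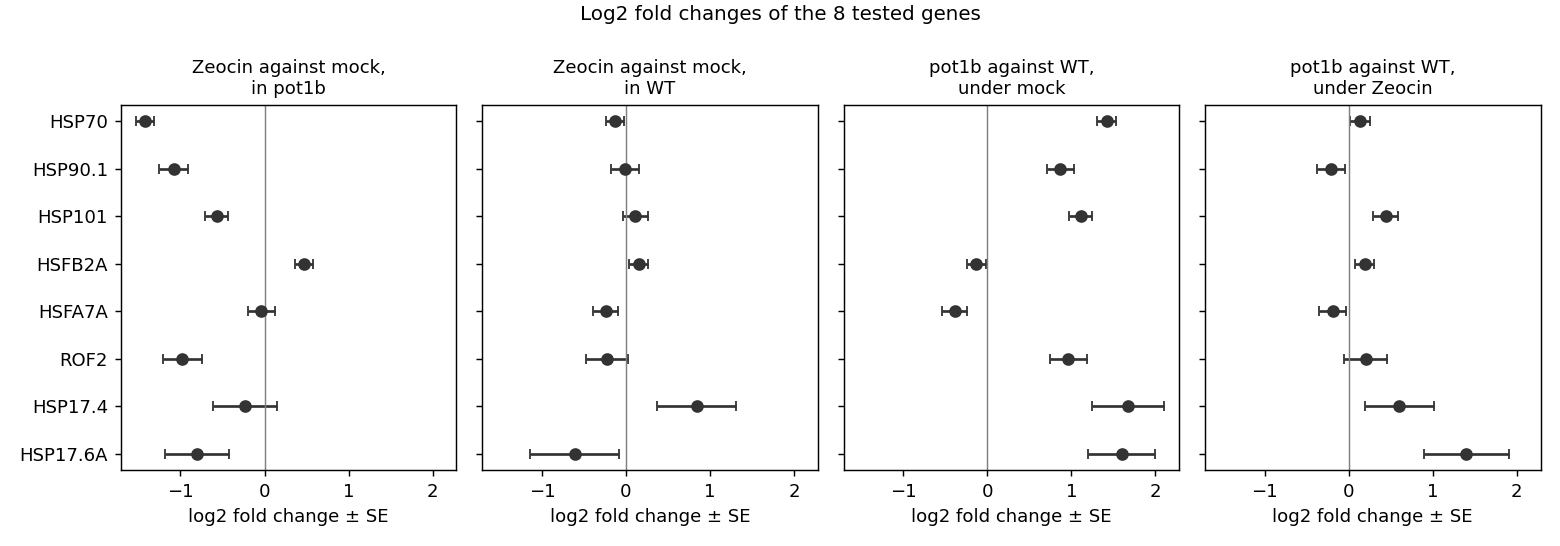
Log2 fold change (points) with its standard error (bars) of the 8 tested genes in 4 comparisons. HSP70 lies at -1.42 for Zeocin against mock in pot1b and at 1.42 for pot1b against WT under mock, 2 comparisons that share the pot1b mock libraries, and near 0 in the others.

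Set per kilobase of exon, HSP70 lay far below HSC70-1, and HSP90.1 below HSP90.2, in every group. HSC70-1, the main constitutive cytosolic HSP70, had 175 CPM per kilobase in pot1b Zeocin, 217 in pot1b mock, 193 in WT Zeocin and 191 in WT mock. HSP70 had 5.55 ± 0.136, 14.9 ± 0.504, 5.1 ± 1.06 and 5.58 ± 0.342 in the same groups (SD, n = 3 each). HSP90.1 had 5.2 in pot1b Zeocin, 11 in pot1b mock, 6.06 in WT Zeocin and 6.11 in WT mock, where HSP90.2 had 22.5 in pot1b mock and 15.5 in WT mock. Other cytosolic genes lay nearer to them. HSP90.4 had 5.76 in pot1b mock and 4.87 in WT mock, both below HSP90.1. HSP70-14 had 14.9 in pot1b mock and 14.6 in WT mock, and HSP70-15 had 9.61 in pot1b mock and 9.4 in WT mock, so that HSP70 reached their range in pot1b mock but lay below both in WT mock. In pot1b mock the order of mean levels per kilobase was HSP70 (14.9), HSP90.1 (11), HSFB2A (7.31 ± 0.268), HSFA7A (6.9 ± 0.388), HSP101 (2.6 ± 0.254), HSP17.4 (1.86 ± 0.894), HSP17.6A (1.54 ± 0.643), ROF2 (1.32 ± 0.329), HSP18.2 (0.48) and HSFA2 (0.131). HSFB2A and HSFA7A lay within their spread of each other, and so did neighbours from HSP101 to ROF2. In WT mock HSFA7A (9 ± 0.766) and HSFB2A (7.93 ± 1.05) came first, within their spread of each other, before HSP90.1 (6.11 ± 0.741) and HSP70 (5.58 ± 0.342), which also overlapped.

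**Figure D4:**
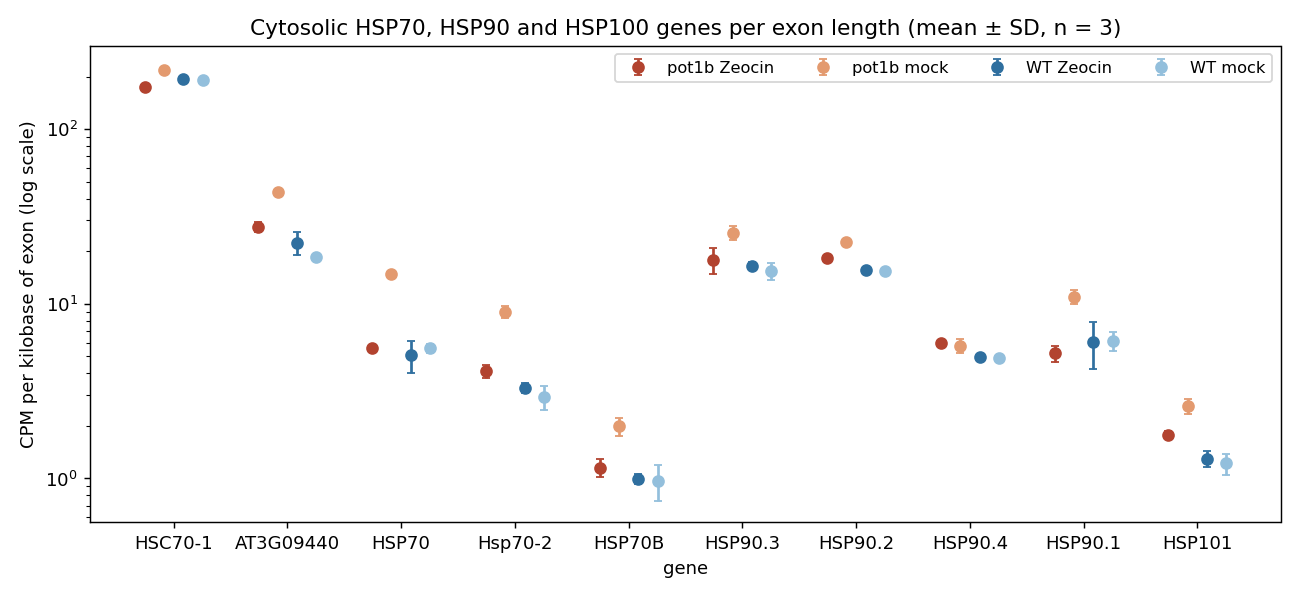
Mean CPM per kilobase of exon (log axis) with SD for HSP70, HSP90 and HSP100 genes of the cytosol, n = 3 libraries per group, in the order pot1b Zeocin, pot1b mock, WT Zeocin and WT mock within each gene. HSC70-1 lies between 175 and 217 in all groups, whereas HSP70 has 14.9 in pot1b mock and 5.1 to 5.58 elsewhere.

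The wider heat shock and chaperone system was read from 5 lists of 96 other genes, of which 80 were tested. For pot1b mock against WT mock 24 of them rose and 0 fell (30% called, median 0.22, against 7.25% higher and 5.83% lower of all genes, median 0.01). For pot1b Zeocin against pot1b mock 2 rose and 17 fell (23.8% called, median -0.14, against 3.7% higher and 3% lower of all genes, median 0.00). For WT Zeocin against WT mock 3 rose and 2 fell, near the background (6.25% called, all genes 5.99%). For pot1b Zeocin against WT Zeocin 6 rose and 3 fell (11.2%, all genes 11.1%). These counts are from edgeR. In the same order of comparisons, DESeq2 called 19, 17, 3 and 5 of the genes and limma-voom 22, 18, 4 and 9. The lists were drawn up with earlier results of these data known.

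Of 21 tested HSP70, HSP90, HSP100 and HSP60 chaperone genes, 9 rose in pot1b mock against WT mock (42.9%, median 0.25, against 7.25% higher of all genes) and 6 fell in pot1b Zeocin against pot1b mock (28.6%, median -0.13, against 3% lower of all genes). None was called the other way in either. Hsp70-2 (AT5G02490), a cytosolic HSP70, had 11.2, 9.89 and 9.54 CPM in pot1b Zeocin, 23.9, 20.5 and 22.5 in pot1b mock, 8.63, 8.43 and 7.54 in WT Zeocin and 6.54, 6.74 and 8.6 in WT mock. As for HSP70, pot1b mock stood clear of all other libraries. It was 1.61 higher than WT mock (log2, SE 0.12, adjusted p = 2.5e-09 by edgeR), and pot1b Zeocin was lower than pot1b mock (-1.13, SE 0.12, adjusted p = 2.8e-07). A further HSP70 family gene, AT3G09440, had 89.6, 94.5 and 82.6 CPM in pot1b Zeocin, 144, 143 and 135 in pot1b mock, 82.6, 73.3 and 60.8 in WT Zeocin and 57.9, 61.1 and 60 in WT mock. It rose by 1.24 (SE 0.09, adjusted p = 2.4e-09) in pot1b mock against WT mock and fell in pot1b Zeocin against pot1b mock (-0.66, SE 0.09, adjusted p = 1.5e-05). It overlaps AT3G09430 on the opposite strand over 18.9% of its exon length, a gene with 107 counts over all libraries against 17055 for AT3G09440. Its value is uncertain in the shared stretch. HSC70-1 fell by 0.31 on the log2 scale in pot1b Zeocin against pot1b mock (adjusted p = 0.008, but 0.052 without pot1b mock replicate 2, at -0.29, and 0.055 without both libraries numbered 3), and its difference of 0.18 between pot1b mock and WT mock was not called (adjusted p = 0.11). That difference was called at a like size with only the 2 groups compared (0.19, adjusted p = 0.014) and without WT Zeocin replicate 1 (0.18, adjusted p = 0.03).

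These HSP70 genes carry 3-unit elements like that of HSP70. Each site is given as above, with the run of 3 units in capitals.
Hsp70-2, chr5:552686-552715, minus strand: ataattacaGAACATTCTGGAAactcaagt
AT3G09440, distal site, chr3:2905894-2905923, minus strand: catcgaaccGAACATTCTCGAAccttttta
AT3G09440, proximal site, chr3:2905765-2905794, minus strand: cgagccatcGAACCTTCTCGAAactcgagt
HSC70-1, chr5:556554-556583, minus strand: acaaccatcGAACATTCTCGAAacatttta
HSP70B, a further heat-inducible cytosolic HSP70 gene, held a run of 2 units only and rose by 1.10 (SE 0.17, adjusted p = 0.00011) in pot1b mock against WT mock and fell in pot1b Zeocin against pot1b mock (-0.79, SE 0.18, adjusted p = 0.0051). No run of 3 units was found before HSP70B, ROF2 or HSP101, nor before HSP90.2 or HSP90.3, which held no run of 2 units either. HSP70-15 and cpHSC70-1 held a run of 3 units, at means of 27 and 77.6 CPM in pot1b mock against 26.4 and 81.5 in WT mock. The plastid gene cpHSC70-2 held such a run too, at 35.7 CPM in pot1b mock against 25.3 in WT mock (log2 fold change 0.50, adjusted p = 0.00014 by edgeR). Of the 23 listed HSP70, HSP90, HSP100 and HSP60 genes, 26.1% held a run of 3 units in the 500 bases. A relation of the elements to the differences was not tested.

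Among the HSP90 genes of this list, HSP90.3 (0.73, SE 0.10, adjusted p = 7e-05) and HSP90.2 (0.54, SE 0.07, adjusted p = 6.6e-06) of the cytosol and HSP90.5 of the plastid (0.55, SE 0.07, adjusted p = 1.1e-05) rose in pot1b mock against WT mock. HSP90.3 (-0.53) and HSP90.2 (-0.31) fell in pot1b Zeocin against pot1b mock, calls that were lost without both libraries numbered 3 (-0.45 and -0.31). HSP90.2 and HSP90.3 share 18.9% and 24.8% of their 50-base stretches with other genes, so reads between them may be split, whereas HSP70, HSP90.1 and Hsp70-2 share 0%. The mitochondrial disaggregase CLPB4 rose in WT Zeocin against WT mock (0.75, SE 0.16, adjusted p = 0.004, but 0.062 without WT mock replicate 1, at 0.63), and so did the plastid HSP70 gene cpHSC70-2 (0.33, SE 0.08, adjusted p = 0.012, lost without WT mock replicate 1, at 0.34, or 3, at 0.30). Calls of CLPB4 (-0.54), HSP60-2 (0.44) and AT3G09440 (0.30) for pot1b Zeocin against WT Zeocin were lost without 5, 3 and 4 single libraries, with values from -0.58 to -0.47, 0.35 to 0.44 and 0.19 to 0.31. Those of CLPB4 and HSP60-2 were also lost with DESeq2 and without both pot1b libraries numbered 3.

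Of 14 tested heat shock factor genes, 2 rose and 0 fell in pot1b mock against WT mock (14.3% called, near the 13.1% of all genes, median 0.01), and 0 were called in either Zeocin comparison by edgeR, DESeq2 or limma-voom, where 0 in pot1b and 3 in WT had an unadjusted p under 0.05. For WT Zeocin against WT mock, HSFA4A was called higher without WT Zeocin replicate 1 (0.38) and HSFA8 without WT Zeocin replicate 3 (0.59). HSFA4A, a class A factor linked to oxidative stress, averaged 14.7 ± 0.44 CPM in pot1b Zeocin, 15.6 ± 1.78 in pot1b mock, 9.61 ± 1.34 in WT Zeocin and 7.81 ± 0.385 in WT mock (SD, n = 3 each). Unlike HSP70 it was higher in pot1b with both treatments, by 0.99 under mock (SE 0.12, adjusted p = 2.4e-06) and by 0.61 under Zeocin (SE 0.11, adjusted p = 0.001). HSFA8 rose by 0.57 under mock (adjusted p = 0.013), a call lost without WT mock replicate 3 (0.46), pot1b mock replicate 1 (0.55) or pot1b mock replicate 2 (0.54). The HSFA1 genes, whose products start the heat response, differed by -0.14 (HSFA1A, SE 0.18), -0.08 (HSFA1B, SE 0.19), -0.11 (HSFA1D, SE 0.17) and -0.05 (HSFA1E, SE 0.17), none of them called.

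Of 16 small heat shock protein genes outside the 10, only 7 were read deeply enough to test, and 1 rose in pot1b mock against WT mock (14.3%, all genes 13.1%). This was HSP17.6II, of cytosolic class II, by 1.40 (SE 0.33, adjusted p = 0.0061, but 0.062 without WT mock replicate 1, at 1.24, and 0.056 without WT mock replicate 3, at 1.18). DESeq2 did not call this rise. HSP17.6II fell in pot1b Zeocin against pot1b mock (-1.26, adjusted p = 0.03), where AT4G21870 rose (0.43, adjusted p = 0.041), and AT2G29500 fell in WT Zeocin against WT mock (-0.94, adjusted p = 0.024). These calls were lost without 4, 8 and 5 single libraries, with values from -1.22 to -1.06, 0.38 to 0.45 and -1.03 to -0.85. Each was also lost with DESeq2, and that of AT4G21870 with limma-voom too. Those of HSP17.6II and AT4G21870 were lost without both pot1b libraries numbered 3 as well. AT4G21870, an HSP20-like gene, was higher in pot1b Zeocin than in WT Zeocin (0.58, SE 0.13, adjusted p = 0.0037). Among 20 tested co-chaperone and other heat-induced genes 3 rose and 0 fell in pot1b mock against WT mock (15% called, near the 13.1% of all genes, median -0.02). They were FES1A, a nucleotide exchange factor of HSP70 (0.70, SE 0.14, adjusted p = 0.0012), and the DREB2 transcription factor genes DREB2A (0.54, SE 0.16, adjusted p = 0.028) and DREB2C (0.55, SE 0.12, adjusted p = 0.0038). DREB2C also rose with Zeocin, by 0.91 (SE 0.11) in pot1b and by 0.77 (SE 0.12) in WT. Its pattern was not that of HSP70. The call of DREB2A was lost without pot1b mock replicate 1 (0.52) or 2 (0.50) or WT mock replicate 1 (0.47) or 3 (0.52), and also with DESeq2.

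The chaperones of the endoplasmic reticulum, which fold secreted proteins and are known mainly as targets of the unfolded protein response, had 9 of 18 genes higher and 0 lower in pot1b mock against WT mock (50% called, median 0.29, against 7.25% higher and 5.83% lower of all genes). These are calls of edgeR, where DESeq2 called 6 and limma-voom 7. The list had 0 higher and 10 lower in pot1b Zeocin against pot1b mock (55.6% called, median -0.43, against 3.7% higher and 3% lower of all genes), and both other tools also called 10. BIP3, the stress-inducible HSP70 of this compartment, had 12, 4 and 2 counts in pot1b Zeocin, 41, 24 and 32 in pot1b mock, 11, 6 and 4 in WT Zeocin and 10, 1 and 11 in WT mock. Pot1b mock was 2.38 higher than WT mock (log2, SE 0.40, adjusted p = 0.00022), and pot1b Zeocin lower than pot1b mock (-2.16, SE 0.42, adjusted p = 0.0015, but 0.053 without both libraries numbered 3, at -1.67). BIP2, a constitutive form, had 35.2, 34.8 and 29.3 CPM in pot1b Zeocin, 60.9, 55.7 and 59.1 in pot1b mock, 46.1, 42.7 and 36.7 in WT Zeocin and 47.2, 48.1 and 45.8 in WT mock. Its fall in pot1b Zeocin against pot1b mock (-0.82, SE 0.09, adjusted p = 4.9e-07) took it below WT Zeocin (-0.34, SE 0.09, adjusted p = 0.015, a call lost without pot1b Zeocin replicate 3, at -0.25, or WT Zeocin replicate 2, at -0.32), which was not so for HSP70. The call of BIP2 against WT Zeocin was also lost without both pot1b libraries numbered 3. The lectin chaperone CNX1 (-0.93, SE 0.10), the co-chaperone P58IPK (-0.88, SE 0.17) and the disulfide isomerase PDIL1-2 (-0.69, SE 0.11) fell in pot1b Zeocin against pot1b mock as well. So did the co-chaperone ERDJ3A (-1.06, SE 0.26), a call lost without pot1b Zeocin replicate 1 (-0.95) or 2 (-0.88) or pot1b mock replicate 3 (-0.91). Calls of rises in pot1b mock against WT mock, those of ERDJ3A (0.92), PDIL1-2 (0.38), BZIP60 (0.37), SDF2 (0.37), BIP2 (0.32) and CNX1 (0.30), were lost without 2 to 6 single libraries each, with adjusted p up to 0.16. Those of SDF2 and CNX1 were also lost with DESeq2, and that of CNX1 with limma-voom too. That of PDIL1-2 was also lost without both pot1b libraries numbered 3. BZIP60 encodes a transcription factor of the unfolded protein response. CNX1 also fell in WT Zeocin against WT mock (-0.33, adjusted p = 0.038) and was lower in pot1b Zeocin than in WT Zeocin (-0.31, adjusted p = 0.038), calls lost without 6 and 8 single libraries. Both calls were also lost with DESeq2 and with limma-voom, and that for pot1b Zeocin against WT Zeocin without both pot1b libraries numbered 3. Among the genes named from the lists, HSFA1B, cpHSC70-2, FES1A, DREB2A, ERDJ3A and P58IPK overlap a gene on the opposite strand over 0.4% to 4.4% of their exon length.

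**Figure D5:**
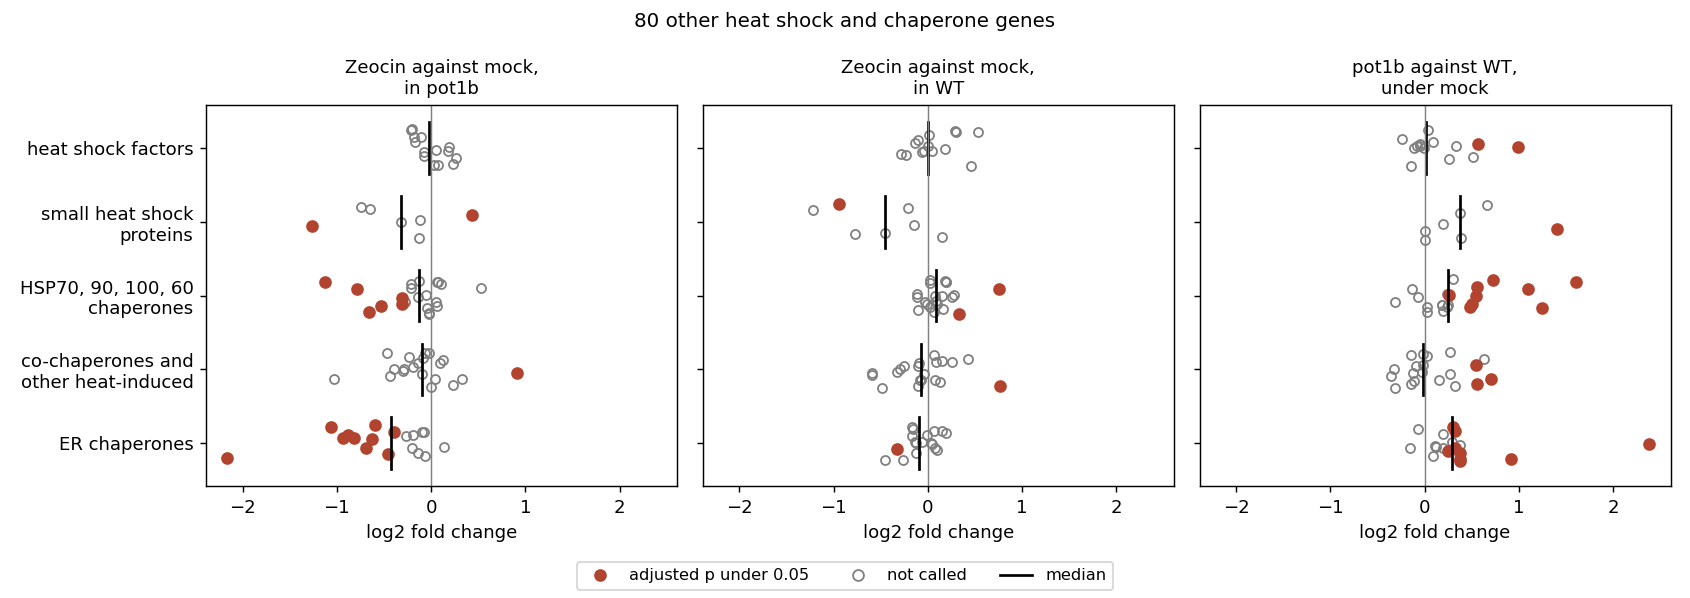
Log2 fold changes (x axis) of 80 other heat shock and chaperone genes in 5 lists (y axis) for Zeocin against mock in pot1b and in WT and for pot1b against WT under mock; filled points had an adjusted p under 0.05 in edgeR, open points did not, and vertical lines are list medians. Filled points of the HSP70 to HSP60 and endoplasmic reticulum lists lie at negative values for Zeocin against mock in pot1b and at positive values for pot1b against WT under mock.

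The genes whose pattern over the 12 libraries was most like that of HSP70 were found among 11200 nuclear genes with a mean of at least 5 CPM, by the root mean square difference of their centred log2 profiles. They were AT5G25260 (0.193), EARLI1 (AT4G12480, 0.207), Hsp70-2 (0.222), AGP2 (AT2G22470, 0.229) and AT2G04570 (0.261), where a flat profile would differ by 0.636. EARLI1, a lipid-transfer type gene, had 86.8, 98.7 and 109 CPM in pot1b Zeocin, 198, 220 and 236 in pot1b mock, 79.4, 71.2 and 82.2 in WT Zeocin and 91.3, 96 and 106 in WT mock. AGP2 encodes an arabinogalactan protein. AT5G25260 overlaps AT5G25265 on the other strand over 20.1% of its exon length and is uncertain.

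Markers of organs differed between the groups as well. The summed level of 7 root markers was 656 to 731 CPM in pot1b Zeocin, 705 to 745 in pot1b mock, 388 to 410 in WT Zeocin and 412 to 431 in WT mock, and was thus higher in pot1b with both treatments. Most of this sum was PYK10, with a mean of 650 CPM in pot1b Zeocin, 674 in pot1b mock, 366 in WT Zeocin and 389 in WT mock. PHT1;1, NRT2.1 and PYK10 were called higher in pot1b under mock (0.87, 1.11 and 0.80) and under Zeocin (0.56, 1.13 and 0.83). CASP1, RHD6 and COBL9 were called in neither, at 0.29, -0.11 and 0.52 under mock and -0.10, 0.27 and -0.37 under Zeocin, and WOX5 was not tested.

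The 5 shoot markers summed to 7020 to 7430 CPM in pot1b Zeocin, 7580 to 8690 in pot1b mock, 5890 to 7090 in WT Zeocin and 6380 to 6710 in WT mock. Their sum was thus highest in the 3 pot1b mock libraries, as HSP70 was, but by a smaller margin. Most of this sum was LHCB1.3, with a mean of 4890 CPM in pot1b Zeocin, 5230 in pot1b mock, 4460 in WT Zeocin and 4620 in WT mock. RBCS1A came next, at 2190, 2780, 2100 and 1830 in the same order. RBCS1A, the small Rubisco subunit, was called higher in pot1b mock than in WT mock (0.60) and lower in pot1b Zeocin than in pot1b mock (-0.35). LHCB1.3 (0.18), LHCB2.1 (0.80) and AS1 (-0.15) were not called in pot1b mock against WT mock, and FAMA, a regulator of guard cells, was called lower (-0.47). The 6 seed markers summed to at most 1.45 CPM in any library. The part of organ makeup in the levels of the 10 genes was not tested.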

How the data were processed

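Total RNA of 12 seedling samples was sequenced after depletion of ribosomal RNA, with a stranded kit, per the labels' protocols. The authors' deposited files hold raw read counts per gene for each library; per the submitters' processing notes Trim Galore, HISAT2, featureCounts and limma were used with TAIR10, and versions and the strand setting are not given in the sources used here. Counts were analysed in R 4.3.3 with edgeR 4.0.16: filterByExpr (minimum count 10) removed 14666 features and kept 19596, TMM gave the scaling, and 1 quasi-likelihood model with 4 groups was fitted to all 12 libraries (8 residual degrees of freedom, common dispersion 0.0121), after the script was tested on simulated data. P-values were adjusted by Benjamini-Hochberg over the 19596 genes of each comparison, and values under 0.05 were called. DESeq2 1.42.0, limma-voom (limma 3.58.1), other filters, single groups, a replicate block, each library left out in turn and, added after seeing the data, both pot1b libraries numbered 3 left out were the alternatives. Levels are CPM (means ± SD, n = 3); those compared between genes were divided by annotated exon length.

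The 10 genes and the 5 other lists were chosen with earlier results of these data known. Besides the 10, the genes named are the called genes with the largest change in each list (up to 6 per direction in the 2 comparisons with pot1b mock, up to 3 in the others), the 4 HSFA1 genes and the 5 genes most like HSP70 (log2(CPM + 0.5) profiles). POT1B, BRCA1 and the organ markers are named as checks, and further genes of the lists were picked after their values were seen. Of 34262 features 32548 had an entry in the RefSeq TAIR10.1 table, matched by locus tag; sequences and positions are TAIR10.1, while counts were made on TAIR10. Elements were searched 250 bases before the gene start, with the windows of 300 bases and, added after seeing the annotation, 500 bases before the coding start as alternatives.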

Additional observations from a re-analysis of the deposited data

Results flagged for a closer look

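The difference between the Zeocin effects of pot1b and WT was tested as an interaction in edgeR, and it was called for the following genes, all of which rest on the same 3 pot1b mock libraries and all of which are negative on the log2 scale. HSP70 (-1.29) and HSP90.1 (-1.08) belong to the 10 genes, which were picked with their values known. Hsp70-2 (-1.29, SE 0.17, adjusted p = 0.00036) and AT3G09440 (-0.94, SE 0.13, adjusted p = 0.00036) are further HSP70 genes. BIP2 (-0.65, adjusted p = 0.0096), CNX1 (-0.61, adjusted p = 0.029) and PDIL1-2 (-0.63, adjusted p = 0.044) are chaperones of the endoplasmic reticulum. AT5G25260 (-1.36), AT4G12480 (EARLI1, -0.82) and AT2G22470 (AGP2, -0.90) were named for being like HSP70, so that their values are a description.

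The calls of HSP90.1, PDIL1-2 and CNX1 were not firm: they were lost when 10, 10 and 9 of the 12 libraries were dropped singly, where the adjusted p reached 0.15, 0.14 and 0.097. All of them were also lost with limma-voom and without both pot1b libraries numbered 3, and that of PDIL1-2 with DESeq2 too. That of BIP2 was lost only without both pot1b libraries numbered 3 (-0.58, adjusted p = 0.089).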

How the results depend on the processing

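Counts of called genes depended on the setting. For WT Zeocin against WT mock, the count over all genes was 709 with only the 2 groups compared, and of the other heat shock genes it was 3 with DESeq2, 2 with only the 2 groups and 8 with a replicate block. Leaving out both pot1b libraries numbered 3 gave 742 genes and 2 of the 10 for pot1b Zeocin against pot1b mock. For pot1b mock against WT mock, only the 2 groups gave 3981 genes, and a minimum count of 30 called 3 of the 10, since fewer were tested. For pot1b Zeocin against WT Zeocin, only the 2 groups gave 928 genes and 3 other heat shock genes, DESeq2 gave 5 other heat shock genes, and leaving out both libraries numbered 3 gave 1294 and 5. For the interaction, limma-voom gave 91 genes, 3 other heat shock genes and 1 of the 10, the replicate block 379 and 12, and leaving out both libraries numbered 3 gave 65, 2 and 1. The next ranges are over each library left out in turn, for all genes, other heat shock genes and the 10. They were 707 to 1498, 1 to 8 and 0 to 1 for WT Zeocin against WT mock. They were 919 to 2033, 16 to 23 and 3 to 5 for pot1b Zeocin against pot1b mock. For pot1b mock against WT mock they were 1595 to 3736, 14 to 29 and 3 to 7. Between pot1b Zeocin and WT Zeocin they were 1239 to 2304, 5 to 9 and 0 to 1, and for the interaction 56 to 437, 3 to 8 and 1 to 2. Causes were not tested. Of 2231 values of single genes under alternatives, 2002 kept direction and side of the threshold, 171 lost the call, 41 gained one and 17 changed sign, 0 of them called under either setting. With each library left out, those that changed sign ran over -0.28 to 0.01 (HSP70) and -0.25 to 0.16 (HSP90.1) for WT Zeocin against WT mock and -0.52 to 0.03 (HSP17.4) for pot1b Zeocin against pot1b mock. They ran over -0.22 to 0.01 (HSFA1B), -0.27 to 0.06 (HSFA1D) and -0.15 to 0.04 (HSFA1E) for pot1b mock against WT mock, and over -0.01 to 0.27 (HSP70) and -0.37 to 0.04 (HSP90.1 and HSFA7A) for pot1b Zeocin against WT Zeocin. Without both libraries numbered 3, HSP17.4 was at 0.22 for pot1b Zeocin against pot1b mock, and HSFA1B and HSFA1E at 0.01 for pot1b mock against WT mock. Runs of 2 and 3 units were found before 4 and 3 of the 10 genes in 250 bases, and before 9 and 7 in 500 bases before the coding start. Replicate numbers are shared by the groups. After removing group means, same-numbered libraries correlated at -0.01 to 0.43, over 0.1 in 12 of 18 pairs and at 0.30 to 0.43 in all 6 pairs of number 3, and 9 of 12 libraries were closest to their own number, a hint of pairing from the data. Since not every pair was over 0.1 and the labels give the numbers no meaning, they were not treated as pairs. With the replicate block the count over all genes was 1691 against 1174 for WT Zeocin against WT mock, 1701 against 1313 for pot1b Zeocin against pot1b mock, 3273 against 2562 for pot1b mock against WT mock and 2862 against 2168 for pot1b Zeocin against WT Zeocin. Of 108 results of single genes the block gained 11 calls and lost 0. Those gained were HSFA8 (adjusted p = 0.043) and AT3G09440 (0.02) for WT Zeocin against WT mock, HSFA7A (0.047) and HSC70-1 (0.036) for pot1b mock against WT mock, HSP90.2 and DREB2A for pot1b Zeocin against WT Zeocin, and HSP90.2, HSP90.3, HSP90.5, HSC70-1 and AT4G21870 for the interaction. Depth limits HSFA2, HSP18.2, HSP17.4 and HSP17.6A, which had at most 33 counts in a library.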
